A study of Orbilia oligospora ATCC 24927 with 24 samples.

Results

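Transcript levels of 3 genes of the nematode-trapping fungus Arthrobotrys oligospora were followed through 24 RNA-seq libraries. They are AOL_s00006g570, annotated as a rodlet protein, AOL_s00081g178, a match to conidiation-specific protein 13, and AOL_s00004g152, a match to the glucose-repressible gene protein. They are 3 of 11479 annotated genes, and they were chosen by name from their TPM (a transcript level corrected for gene length, in units that add up to the same total in every library) in all 8 groups of libraries. Their levels and differences are therefore given as a description, without a test. Hyphae of strain ATCC 24927 were grown on potato dextrose agar at 28 °C. In the PkaC1 experiment a mutant whose labels give a deletion of AoPkaC1, which encodes the catalytic part of the cAMP-activated protein kinase PKA, was compared with a wild type. In the Acy experiment a mutant whose labels give a deletion of AoAcy, which encodes adenylate cyclase, was compared with a wild type of its own. Every strain was sampled 12 h into trap formation triggered with an extract of nematodes, and before the extract (0 h), with 3 libraries per group. No strain was sampled untreated at 12 h, so the extract and the 12 h of further time cannot be told apart. The labels do not say whether a deletion strain is 1 clone, or whether each library stands for its own culture, although the submitters' design text speaks of biological replicates. That text names a mutant of another gene, AorlmA, where the sample labels give AoPkaC1 and AoAcy; the labels were followed, and the conflict bears on every value of a deletion.

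Adenylate cyclase makes cAMP, which releases the catalytic subunits of PKA, a kinase through which many fungi tie growth and spore formation to nutrients. Rodlet proteins are hydrophobins, small secreted proteins that assemble into the water-repellent layer on the surface of conidia, the asexual spores, as RodA does in Aspergillus nidulans. In Neurospora crassa the con-13 transcript accumulates during conidiation. The transcript of the N. crassa glucose-repressible gene (grg-1, also known as ccg-1) accumulates when glucose runs out and is also controlled by the circadian clock. None of these roles has been tested here in A. oligospora.

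Each library of the PkaC1 experiment listed 9461 to 9799 genes above 0 TPM, and each of the Acy experiment 10216 to 10539. TPM keep no read counts, so the depth behind each value is unknown, and a value of 0 means only that the gene is listed at 0. Wild type libraries of the PkaC1 experiment lay closest together, with a median coefficient of variation of 1.98% at 12 h and 1.63% at 0 h among genes at 1000 TPM or more, against 6.03% to 17.9% in the other groups. Genes annotated as the deleted products were not at 0 in the libraries labelled deletion. The adenylate cyclase AOL_s00080g284 had 9.58 to 12.7 TPM in all Acy deletion libraries, against 10.8 to 17.1 TPM in their wild type. Of both annotated PKA catalytic subunits, AOL_s00043g480 had 24.9 to 53.1 TPM in PkaC1 deletion libraries, against 47.0 to 70.4 TPM in their wild type, and AOL_s00078g405 had 24.2 to 57.0 TPM, against 24.4 to 58.2 TPM. Which of both is AoPkaC1 is not stated in the labels.

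The rodlet gene AOL_s00006g570 (coding length 429 bases) was near absent from one wild type and among the most abundant transcripts of the other. In the Acy experiment it had 1206, 1130 and 1036 TPM in Acy deletion libraries at 12 h, and 1322, 1211 and 1362 TPM at 0 h. Its wild type libraries had 6869, 8703 and 7131 TPM at 12 h, and 549, 779 and 912 TPM at 0 h. The wild type at 12 h stood far above every other group, as the 7th to 10th most abundant of 11479 annotated genes, with 0.757% of all TPM. In the Acy deletion libraries the gene lay between the 94th and 134th rank at both times. From lowest to highest the order was wild type at 0 h, deletion at 12 h, deletion at 0 h and wild type at 12 h, with no overlap between neighbours, although the deletion groups came within 5 TPM of each other at 1206 TPM (12 h) and 1211 TPM (0 h).

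In the wild type of the Acy experiment the rodlet gene was 10.1-fold higher at 12 h than at 0 h, at 7568 ± 992 TPM against 747 ± 184 TPM (SD, n = 3 each). The difference in mean log2(TPM + 1), the scale of every log2 difference below, was 3.36, and 45 of 9617 genes tested had a larger increase. In the Acy deletion libraries the same interval gave -0.21. The deletion libraries were therefore 1.74-fold above wild type at 0 h (0.83) and 6.73-fold below it at 12 h, at 1124 ± 85.3 TPM against 7568 ± 992 TPM (-2.74). RNA was extracted from whole hyphal samples, in which fewer cells of a type and less RNA per cell cannot be told apart.

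In the PkaC1 experiment the rodlet gene had 18.8, 4.31 and 5.22 TPM in PkaC1 deletion libraries at 12 h, and 13.2, 12.6 and 13.1 TPM at 0 h. Wild type libraries had 0.30, 0 and 0 TPM at 12 h, and 0, 0.81 and 0 TPM at 0 h, where 0 means listed at 0. All deletion libraries lay above all wild type libraries at both times (log2 difference 2.99 at 12 h and 3.52 at 0 h), while the deletion groups overlapped each other, with 1 library at 12 h above and the other two below every 0 h library. No fold is given against wild type, where most libraries are listed at 0. The change between times in the deletion libraries was -0.69 on the TPM as deposited and 0.15 with libraries scaled to the same median, so its direction depends on the scaling. The 2 tables were normalized separately, and no test was run between them. Side by side, the untreated wild types had 0 to 0.81 TPM (PkaC1 experiment) and 549 to 912 TPM (Acy experiment).

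**Figure D1:**
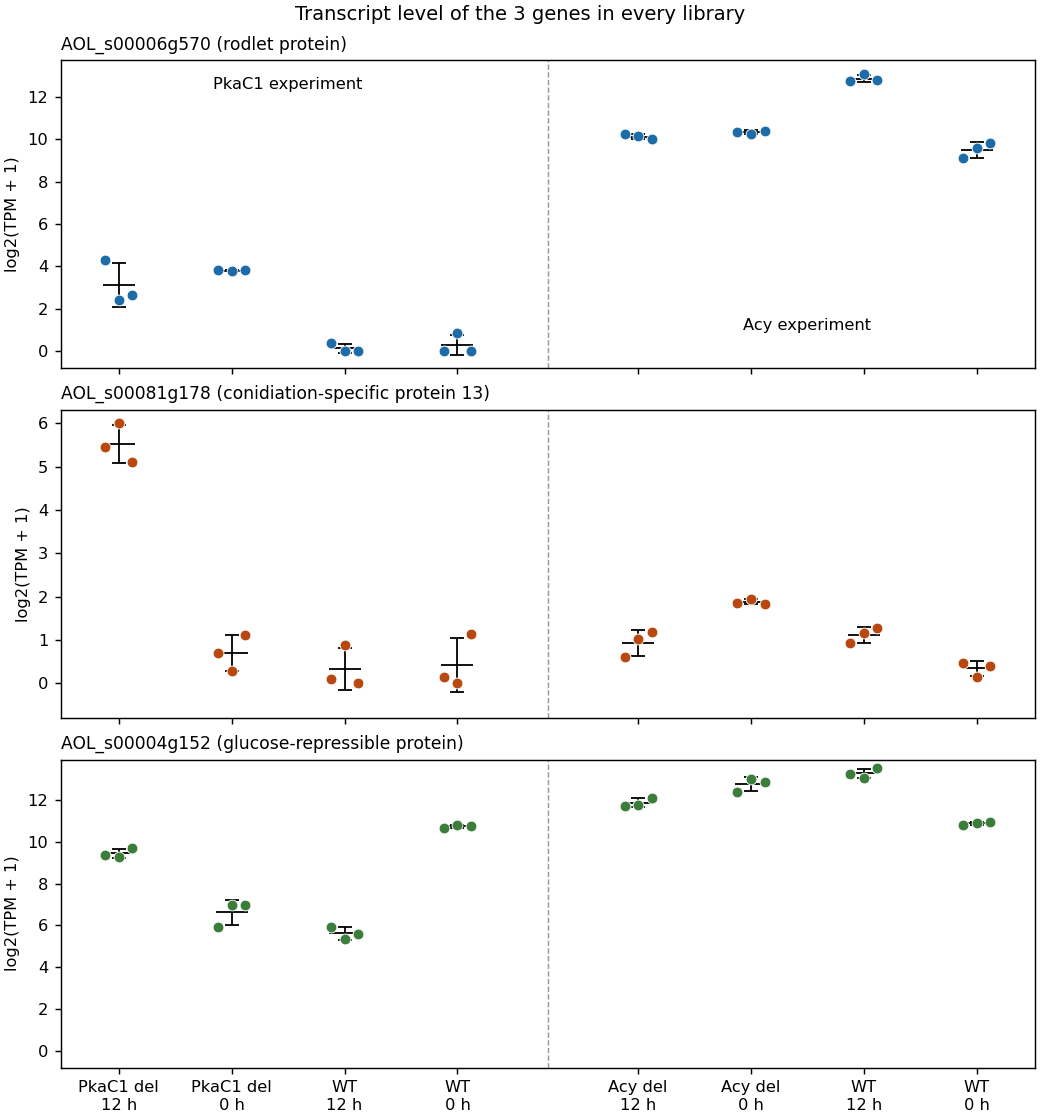
Level of each of the 3 genes as log2(TPM + 1) in every library (points), with the mean and SD of 3 libraries per group (bars), for the PkaC1 experiment (left of the dashed line) and the Acy experiment (right of it). The rodlet gene is highest in wild type at 12 h of the Acy experiment (6869 to 8703 TPM), conidiation-specific protein 13 in PkaC1 deletion at 12 h (33.6 to 63.0 TPM), and the glucose-repressible gene in wild type at 12 h of the Acy experiment (8494 to 11667 TPM).

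The files annotate 2 further genes with a hydrophobin domain. AOL_s00007g172, with a Hydrophobin_2 domain, was listed at 0 in all 12 libraries of the PkaC1 experiment. Acy strains differed, with 2.40 to 3.21 TPM in deletion libraries at 12 h and 0.95 to 3.0 TPM at 0 h, against 23.2 to 37.4 TPM in wild type at 12 h and 0 to 0.87 TPM at 0 h. It rose between 0 h and 12 h in wild type (log2 difference 4.66 ± 0.303 SE, limma adjusted p = 7.1e-07) and was lower in the deletion than in wild type at 12 h (-3.03 ± 0.303, adjusted p = 4.26e-06). Its responses differed between deletion and wild type by -4.16 ± 0.429 (adjusted p = 0.000124), a difference called in 19.3% of all genes tested in that experiment. AOL_s00075g89, with a Hydrophobin domain, stayed at or below 0.35 TPM in every library.

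In the Acy experiment AOL_s00006g571, a GMC oxidoreductase gene directly beside the rodlet gene, was, like it, lowest in wild type at 0 h and highest in wild type at 12 h. It had 64.2 ± 16.3 TPM in Acy deletion at 12 h and 26.7 ± 7.71 TPM at 0 h, against 305 ± 84.9 TPM in wild type at 12 h and 14.2 ± 1.08 TPM at 0 h (SD, n = 3 each). This neighbour rose between 0 h and 12 h in wild type (4.30 ± 0.25, limma adjusted p = 3.18e-07) and less in the deletion (1.24 ± 0.25, adjusted p = 0.0152), and the difference between both responses was -3.06 ± 0.354 (adjusted p = 0.000257). In the PkaC1 experiment it stayed at or below 0.98 TPM. The other 5 neighbours had a mean log2(TPM + 1) of at most 4.96 in any group, as the plot of neighbouring genes shows.

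Conidiation-specific protein 13, AOL_s00081g178 (coding length 864 bases), was a low transcript in every group but 1. PkaC1 deletion libraries had 42.6, 63.0 and 33.6 TPM at 12 h, and 0.63, 0.22 and 1.17 TPM at 0 h. Wild type libraries of that experiment had 0.07, 0.85 and 0 TPM at 12 h, and 0.10, 0 and 1.21 TPM at 0 h. The deletion at 12 h was far above the rest, and the other 3 groups overlapped. Within the deletion the gene was higher at 12 h than at 0 h, at 46.4 ± 15.0 TPM against 0.673 ± 0.476 TPM (SD, n = 3 each). No fold is given against libraries this close to 0. That difference was 4.82 on the log2 scale, with 21 of 8977 genes showing a larger increase, and against wild type at 12 h it was 5.19, with 7 larger.

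Conidiation-specific protein 13 stayed below 3 TPM in the Acy experiment, where small absolute differences set the log2 values. Acy deletion libraries had 0.52, 1.01 and 1.27 TPM at 12 h, and 2.63, 2.87 and 2.55 TPM at 0 h. Wild type libraries had 0.89, 1.22 and 1.41 TPM at 12 h, and 0.39, 0.11 and 0.32 TPM at 0 h. The deletion at 0 h lay above all other libraries and the wild type at 0 h below them, while the groups at 12 h overlapped. Log2 differences were 1.54 for deletion against wild type at 0 h, -0.18 at 12 h, -0.95 for 12 h against 0 h in the deletion and 0.77 in wild type.

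Of the other genes matched to conidiation-specific protein 13, neither was highest in PkaC1 deletion at 12 h. AOL_s00079g472 had 8.99 ± 1.21 TPM in PkaC1 deletion at 12 h and 24.2 ± 1.40 TPM at 0 h, against 10.8 ± 0.433 TPM in wild type at 12 h and 21.2 ± 1.06 TPM at 0 h (SD, n = 3 each). It fell between 0 h and 12 h in the deletion (-1.34 ± 0.099, limma adjusted p = 1.53e-07, and -0.48 after scaling) and in wild type (-0.90 ± 0.099, adjusted p = 6.83e-06). In the Acy experiment AOL_s00079g472 had 16.3 ± 9.23 TPM in the deletion at 12 h and 8.68 ± 0.747 TPM at 0 h. Wild type there had 5.36 ± 1.59 TPM at 12 h and 11.9 ± 0.519 TPM at 0 h. The gene was higher in the Acy deletion at 12 h (1.33 ± 0.317, limma adjusted p = 0.00329, and 0.88 after scaling). Its responses differed by 1.75 ± 0.448 (adjusted p = 0.021), a difference called in 19.3% of all genes tested there. AOL_s00007g374 was at most 3.39 TPM, in PkaC1 deletion at 0 h.

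Beside AOL_s00081g178, 2 genes away, lies a match to D-arabinitol dehydrogenase 1, AOL_s00081g180, an enzyme of pentitol metabolism. It had 165.6 ± 18.7 TPM in PkaC1 deletion at 12 h and 0.687 ± 0.419 TPM at 0 h, against 10.5 ± 0.362 TPM in wild type at 12 h and 0.507 ± 0.215 TPM at 0 h. It was higher at 12 h than at 0 h in the deletion (6.65, and 7.31 after scaling) and in wild type (2.94), with a difference between the responses of 3.70. It was lower in the Acy deletion at both times, with 29.7 ± 2.96 TPM against 145.4 ± 4.35 TPM in wild type at 12 h (-2.26). At 0 h it had 75.6 ± 22.0 TPM in the deletion against 443.6 ± 106 TPM in wild type (-2.54). In both experiments it also had the widest range of group means in the list of growth without glucose counted below. Its differences are therefore given without a test.

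The glucose-repressible gene AOL_s00004g152 (coding length 270 bases) was abundant in most groups and differed between its groups in opposite directions in the PkaC1 and Acy experiments. In the PkaC1 experiment it had 668, 621 and 830 TPM in deletion libraries at 12 h, and 60.5, 124 and 127 TPM at 0 h. Wild type libraries had 60.5, 39.2 and 47.8 TPM at 12 h, and 1632, 1777 and 1705 TPM at 0 h. The deletion libraries were higher at 12 h than at 0 h, and the wild type libraries lower. From lowest to highest the order was wild type at 12 h, deletion at 0 h, deletion at 12 h and wild type at 0 h, with the lowest pair touching, at 60.52 TPM in 1 deletion library at 0 h and 60.51 TPM in 1 wild type library at 12 h.

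Over 12 h the glucose-repressible gene was 34.7-fold lower in that wild type, at 49.2 ± 10.7 TPM at 12 h against 1705 ± 72.4 TPM at 0 h (log2 difference -5.11, with 30 of 8977 genes showing a larger decrease). In the PkaC1 deletion it was 6.82-fold higher, at 706 ± 109 TPM at 12 h against 104 ± 37.3 TPM at 0 h (2.82). The deletion was consequently 14.4-fold above wild type at 12 h (3.83) and 16.5-fold below it at 0 h (-4.10).

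For the Acy strains the directions were the other way round. Acy deletion libraries had 3380, 3487 and 4402 TPM of the glucose-repressible transcript at 12 h, and 5384, 8219 and 7480 TPM at 0 h. Wild type libraries had 9655, 8494 and 11667 TPM at 12 h, and 1798, 1874 and 1955 TPM at 0 h. None of the 4 groups overlapped another, and from lowest to highest they ran wild type at 0 h, deletion at 12 h, deletion at 0 h and wild type at 12 h. The gene was the 6th to 8th most abundant in wild type at 12 h, with 0.994% of all TPM. It was 5.30-fold higher at 12 h than at 0 h in wild type (2.39, at 9938 ± 1605 TPM against 1876 ± 78.8 TPM) and 1.87-fold lower in the deletion (-0.89, at 3756 ± 562 TPM against 7028 ± 1471 TPM). The deletion was 2.65-fold below wild type at 12 h (-1.40) and 3.75-fold above it at 0 h (1.88). Side by side, the untreated wild types of the PkaC1 and Acy experiments had 1632 to 1777 TPM and 1798 to 1955 TPM, and at 12 h 39.2 to 60.5 TPM and 8494 to 11667 TPM.

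No other gene is annotated as a glucose-repressible protein of this kind. AOL_s00083g206, a match to the glucose-repressible alcohol dehydrogenase transcriptional effector, known in yeast as the deadenylase CCR4, had 16.4 to 41.6 TPM in PkaC1 deletion libraries, against 22.2 to 37.0 TPM in wild type. It fell between 0 h and 12 h in the deletion (-0.97 ± 0.101, limma adjusted p = 3.15e-06, but -0.07 and adjusted p = 0.419 after scaling) and rose in wild type (0.59 ± 0.101, adjusted p = 0.000276, but adjusted p = 0.0875 when wild type groups counted as 1 library each). Of the neighbours, AOL_s00004g151, a match to inositol monophosphatase 1, had 75.5 TPM in Acy deletion at 12 h and 109 TPM at 0 h, against 135 TPM in wild type at 12 h and 96.0 TPM at 0 h. Its responses in deletion and wild type differed by -1.01 ± 0.19 (adjusted p = 0.00526). AOL_s00004g153, a match to solute carrier family 35 member E3, had 75.1 TPM in PkaC1 deletion at 12 h and 512 TPM at 0 h, against 99.3 TPM in wild type at 12 h and 282 TPM at 0 h. It fell in both strains, by 2.75 in the deletion (adjusted p = 3.41e-10, and -1.82 after scaling) and by 1.5 in wild type (adjusted p = 5.77e-08) on the log2 scale.

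**Figure D2:**
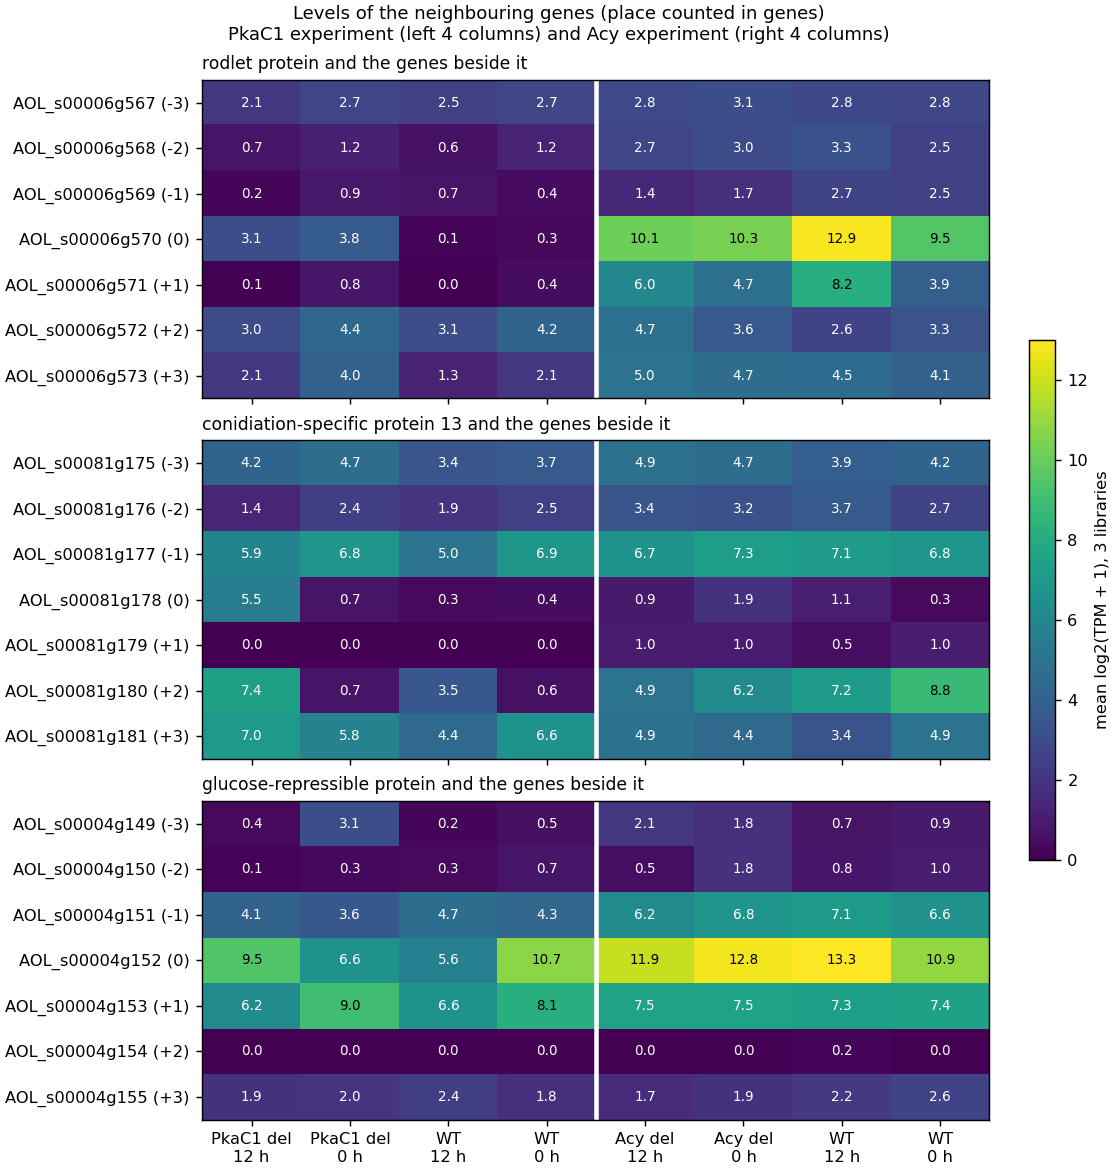
Mean log2(TPM + 1) of 3 libraries for each of the 3 genes and for the 3 annotated genes on either side, by group, with the place counted in genes. The GMC oxidoreductase gene beside the rodlet gene (+1) and the D-arabinitol dehydrogenase gene near conidiation-specific protein 13 (+2) span 4.30 log2 units in the Acy experiment and 6.79 in the PkaC1 experiment.

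Set side by side, the 3 genes did not move as a group. At 0 h the PkaC1 deletion libraries lay wholly above wild type for the rodlet gene, wholly below it for the glucose-repressible gene, and overlapped it for conidiation-specific protein 13; of all genes tested, 43.1% lay wholly above and 25.5% wholly below. At 12 h all 3 lay wholly above wild type, as did 21.1% of all genes, with 55.1% wholly below. In wild type of the PkaC1 experiment the glucose-repressible gene lay wholly below its 0 h libraries at 12 h, as did 47.6% of all genes (33.7% wholly above), and the other 2 overlapped. In the PkaC1 deletion conidiation-specific protein 13 and the glucose-repressible gene lay wholly above at 12 h, as did 18.3% of all genes (60.7% wholly below).

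All 3 genes of the Acy experiment lay wholly above wild type in the deletion at 0 h, as did 31.0% of all genes, with 19.2% wholly below. At 12 h the rodlet and the glucose-repressible gene lay wholly below wild type, as did 16.4% of all genes, with 50.4% wholly above. Between 0 h and 12 h all 3 lay wholly above in wild type (13.2% of all genes, 34.1% wholly below) and all 3 wholly below in the Acy deletion (7.07% of all genes, 16.9% wholly above). These contrasts were in view when the genes were chosen, so nothing is read from their counts. Comparisons within an experiment also share libraries.

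Values from the authors' deposited table had the same sign as these differences in 23 of the 24 cases. In the authors' deposited table the rodlet gene is at 0.32 for PkaC1 deletion at 12 h against 0 h, where the present difference is -0.69, or 0.15 after scaling. For genes near 0 the authors' deposited table gives larger values, such as 7.98 for conidiation-specific protein 13 and 6.49 for the rodlet gene in PkaC1 deletion against wild type at 12 h, where the present differences are 5.19 and 2.99. For the glucose-repressible gene the authors' deposited table lists 4.47, -4.99 and -3.95 where 3.83 (deletion against wild type, 12 h), -5.11 (wild type, 12 h against 0 h) and -4.10 (deletion against wild type, 0 h) are found here.

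**Figure D3:**
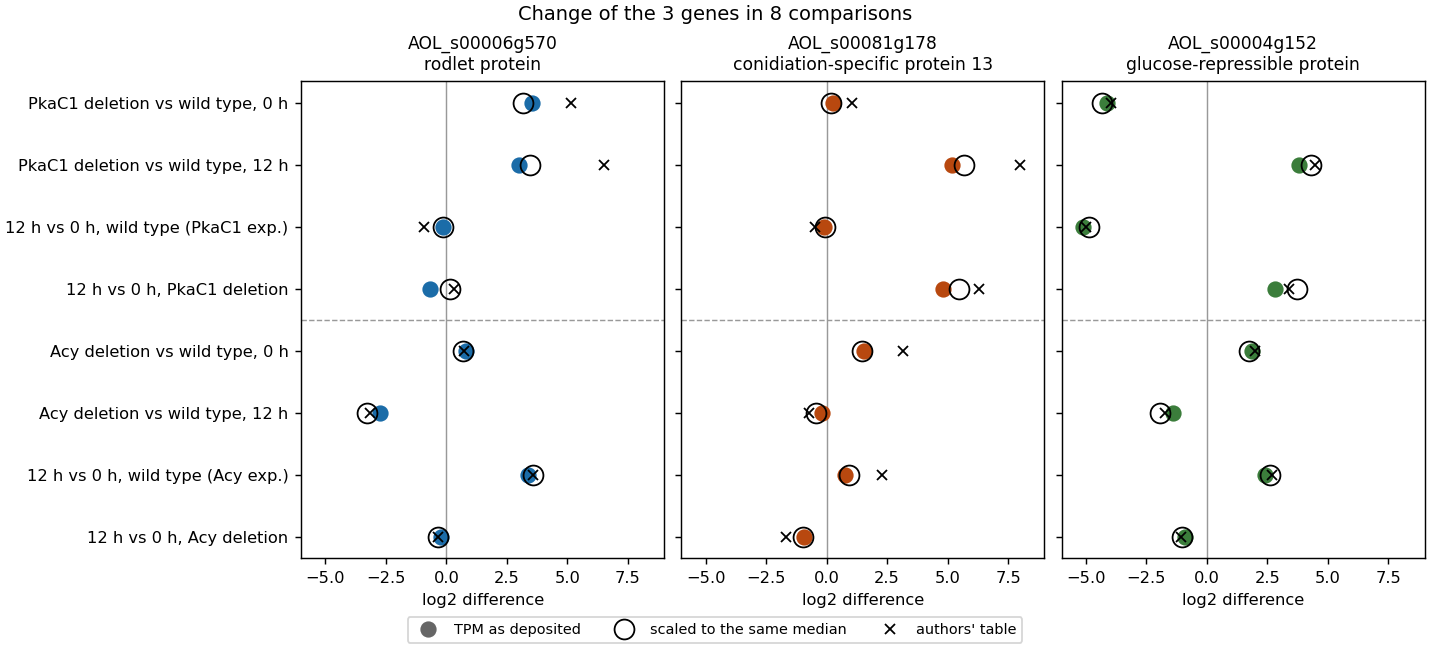
Log2 difference of each of the 3 genes in 8 comparisons, from TPM as deposited (filled circles, difference in mean log2(TPM + 1)), after scaling libraries to the same median (open circles), and in the authors' deposited table (crosses). The glucose-repressible gene runs from -5.11 to 3.83, and its signs in the 4 comparisons of the Acy experiment (below the dashed line) are the reverse of those in the matching comparisons of the PkaC1 experiment.

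Conidiation in A. nidulans runs through the regulators BrlA, AbaA and WetA in turn. The brlA match AOL_s00097g514 had 3.21 ± 0.612 TPM in PkaC1 deletion at 12 h and 32.4 ± 4.50 TPM at 0 h, against 0.457 ± 0.12 TPM in wild type at 12 h and 2.80 ± 0.537 TPM at 0 h (SD, n = 3 each). It was higher in the deletion at 12 h (1.52) and at 0 h (3.14). In the Acy experiment it had 36.7 ± 8.47 TPM in the deletion at 12 h and 37.2 ± 5.28 TPM at 0 h, against 89.9 ± 12.0 TPM in wild type at 12 h and 15.7 ± 4.70 TPM at 0 h. Like the rodlet gene it was lower in the Acy deletion than in wild type at 12 h (-1.29) and higher at 0 h (1.23), and the responses differed by -2.51. Among the other conidiation genes counted below and at 10 TPM or more, this match had the widest range of group means in both experiments. Its differences are therefore given without a test.

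In the Acy experiment the abaA match AOL_s00080g63 was higher at 12 h than at 0 h by 1.28 in wild type and 0.43 in the deletion. That difference in response, -0.84 ± 0.315, had the direction seen for the rodlet gene but was not called (limma adjusted p = 0.0762). In the PkaC1 experiment the order of its groups was not that of the rodlet gene. It had 160.0 ± 32.7 TPM in PkaC1 deletion at 12 h and 213 ± 37.3 TPM at 0 h, against 66.5 ± 0.625 TPM in wild type at 12 h and 332 ± 15.0 TPM at 0 h, levels higher than any in the Acy experiment, where its highest library had 52.7 TPM. Deletion was above wild type at 12 h (1.24 ± 0.143, adjusted p = 1.54e-05) and below it at 0 h (-0.65 ± 0.143, adjusted p = 0.002, but 0.105 with each wild type group as 1 library). Markers of conidia were wetA (AOL_s00173g221) and the vosA match RYP2 (AOL_s00054g700), both detected in all groups, and no gene is annotated as conidiation-specific protein 6, 8 or 10. Their summed level was 18.8 to 24.02 TPM in PkaC1 deletion at 12 h and 39.5 to 41.2 TPM at 0 h, against 23.4 to 24.9 TPM in wild type at 12 h and 36.7 to 43.6 TPM at 0 h. Of these markers, 1 was called higher in PkaC1 deletion than in wild type at 0 h and 1 lower at 12 h, where 40.7% and 52.0% of all genes were. After scaling 1 was higher at each time. Acy strains had 24.1 to 46.6 TPM in the deletion at 12 h and 25.7 to 46.5 TPM at 0 h, against 34.0 to 44.4 TPM in wild type at 12 h and 28.8 to 40.4 TPM at 0 h. Within the Acy experiment these ranges overlapped in the groups in which the rodlet gene was highest and lowest. Most of the sum there was the RYP2 match, with group means of 28.4 to 29.2 TPM, so the overlap says little of the wetA match. The wetA match alone rose between 0 h and 12 h in wild type of the Acy experiment, at 12.1 ± 2.62 TPM at 12 h against 5.76 ± 0.33 TPM at 0 h (0.93 ± 0.227, limma adjusted p = 0.01).

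**Figure D4:**
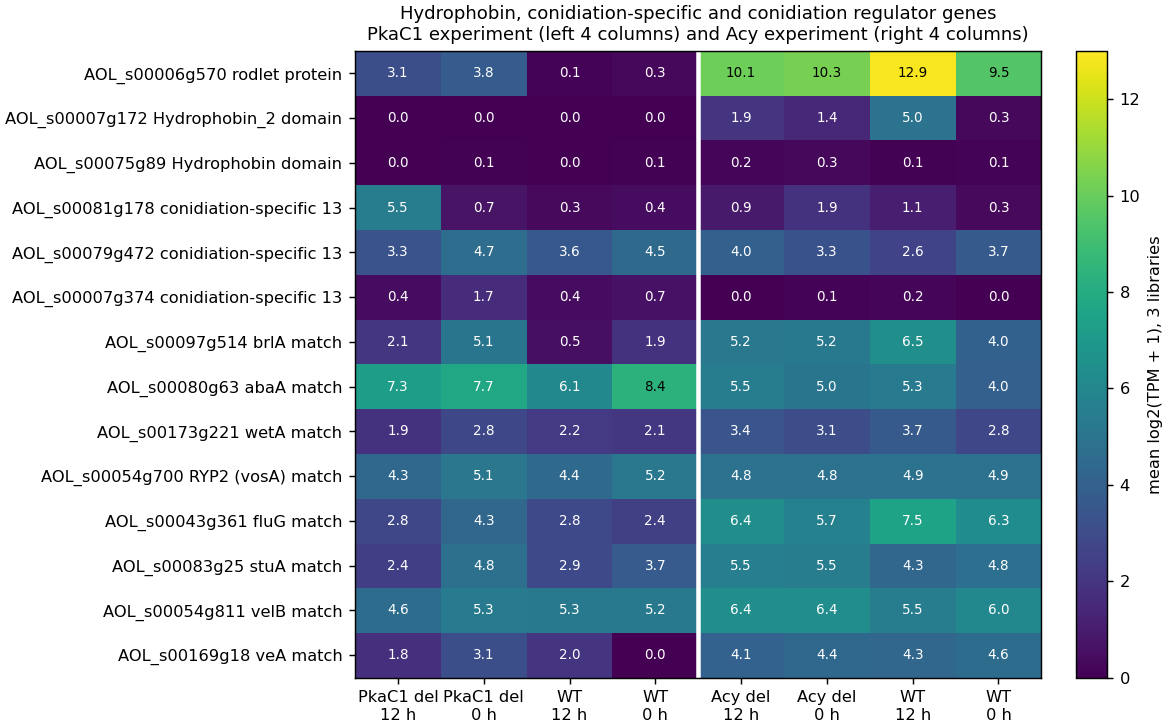
Mean log2(TPM + 1) of 3 libraries per group for the rodlet gene and other hydrophobin genes, the genes matched to conidiation-specific protein 13, and matches to regulators of conidiation. AOL_s00007g172 and the brlA match share the peak of the rodlet gene in wild type at 12 h of the Acy experiment, and the RYP2 match lies between 28.4 and 29.2 TPM in all 4 groups there.

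Of 21 genes with conidiation or spore words in their annotation, 20 other than AOL_s00081g178 were tested in the PkaC1 experiment, and 19 were in the Acy experiment. These words also drew in genes that the name conidiation does not describe well. Among them are sporulation protein matches such as RMD1, RMD8 and spo7, protein phosphatases, and the sexual development regulator VELC. A gene is called at a limma adjusted p under 0.05. Such calls were common: in the PkaC1 experiment 64.7% of all genes tested were called in deletion against wild type at 0 h, 70.9% at 12 h, 69.7% between 0 h and 12 h in wild type and 81.6% in the deletion. The same comparisons in the Acy experiment called 42.1%, 59.2%, 28.6% and 4.99%. Scaling the libraries to the same median shifts these splits. Called higher and lower were then, in the order just used, 29.7% and 33.1%, 31.8% and 32.1%, 37.5% and 34.5%, and 41.5% and 34.4% of all genes in the PkaC1 experiment, and 21.9% and 23.1%, 21.2% and 29.9%, 15.2% and 9.29%, and 2.60% and 2.0% in the Acy experiment.

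In PkaC1 deletion against wild type at 0 h, 11 genes of this list were higher and 3 lower, where 40.7% and 24% of all genes tested were (median log2 difference 0.52, against 0.20 for all genes), or 9 and 4 after scaling. At 12 h 4 were higher and 10 lower, where 18.9% and 52.0% of all genes were (median -0.28, against -0.39), or 6 and 6 after scaling, where 31.8% and 32.1% of all genes were. In the PkaC1 deletion 19 fell and 1 rose between 0 h and 12 h, where 62.2% and 19.4% of all genes did (median -1.23, against -0.72), or 12 and 3 after scaling, where 34.4% and 41.5% did. In wild type 10 fell and 3 rose, where 41.6% and 28.1% of all genes did (median -0.38, against -0.16), or 8 and 6 after scaling. Both comparisons with wild type called only 9 of the list with each wild type group as 1 library, against 14. STUA (AOL_s00083g25), a regulator of conidiophore shape in A. nidulans, was lower at 12 h in the deletion, at 4.25 ± 0.153 TPM against 27.5 ± 5.53 TPM at 0 h (-2.42, and -1.60 after scaling). It had one of the widest ranges of the list in these data, so this is given without a test.

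For the Acy deletion at 0 h, 5 genes of the conidiation list were higher and 4 lower than in wild type, where 26.6% and 15.6% of all genes were (median -0.06, against 0.11), and 5 in all were called without wild type replicate 1 at 0 h, against 9. At 12 h 7 were higher and 4 lower, where 45.5% and 13.7% of all genes were (median 0.18, against 0.39), or 5 and 8 after scaling, where 21.2% and 29.9% were. In wild type of that experiment 5 rose and 3 fell, where 9.20% and 19.4% of all genes did (median -0.14, against -0.19), or 7 and 1 after scaling, where 15.2% and 9.29% did; without replicate 1 at 0 h or without replicate 2 at 12 h 4 were called in all, against 8. In the Acy deletion limma called 0, with 3 at an unadjusted p under 0.05, where 3.66% of all genes rose and 1.33% fell; 1 was called without deletion replicate 3 at 12 h or wild type replicate 1 at 0 h. The FluG match AOL_s00043g361, which in A. nidulans acts upstream of brlA, was higher at 12 h in wild type (1.19), at 187 ± 45.4 TPM against 82.6 ± 25.8 TPM at 0 h. It was lower in the deletion at 12 h, at 83.7 ± 5.09 TPM against 187 ± 45.4 TPM in wild type (-1.13). It had one of the widest ranges of the list in this experiment, so both differences are given without a test.

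The list of growth without glucose holds 49 genes matched by enzyme names of the glyoxylate cycle, gluconeogenesis, acetate and alcohol use, and also dehydrogenases that its name does not describe well. In the PkaC1 experiment 46 were tested. In deletion against wild type 29 were lower and 9 higher at 0 h, where 24% and 40.7% of all genes were (median -0.69, against 0.20), or 33 and 4 after scaling. At 12 h 23 were higher and 15 lower, where 18.9% and 52.0% of all genes were (median 0.41, against -0.39), or 28 and 4. With each wild type group as 1 library 25 were called at 0 h and 24 at 12 h, against 38 at each time. Over 12 h 32 rose and 7 fell in the deletion, where 19.4% and 62.2% of all genes did (median 0.84, against -0.72), or 41 and 1 after scaling. In wild type 20 rose and 18 fell, where 28.1% and 41.6% did (median -0.07, against -0.16), or 23 and 18.

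The key enzymes of the glyoxylate cycle, and the other enzymes of this paragraph, were named for their role after their values had been seen. Their p-values here and below do not allow for that choice. Isocitrate lyase (AOL_s00075g130) had 350 ± 16.7 TPM in PkaC1 deletion at 12 h and 86.2 ± 14.6 TPM at 0 h, against 115 ± 5.10 TPM in wild type at 12 h and 236 ± 2.56 TPM at 0 h. Like the glucose-repressible gene it rose in the deletion (2.02 ± 0.105, limma adjusted p = 7.87e-09, and 2.94 after scaling) and fell in wild type (-1.03 ± 0.105, adjusted p = 3.67e-06), a difference in response of 3.05 ± 0.148 (adjusted p = 2.78e-08). Malate synthase (AOL_s00112g112) had 309.7 ± 10.4 TPM in PkaC1 deletion at 12 h and 95.0 ± 12.2 TPM at 0 h, against 120 ± 3.38 TPM in wild type at 12 h and 220 ± 8.0 TPM at 0 h, with a difference in response of 2.57 ± 0.117 (adjusted p = 1.75e-08). Acetyl-coenzyme A synthetase (AOL_s00081g301) also moved in opposite directions, by 0.56 in the deletion (1.48 after scaling) and -0.79 in wild type. Phosphoenolpyruvate carboxykinase (AOL_s00004g362) and fructose-1,6-bisphosphatase (AOL_s00078g34), both of gluconeogenesis, rose in the deletion (2.12 and 1.83, and 3.05 and 2.75 after scaling) and in wild type too (0.75 and 1.28; adjusted p from 1.89e-10 to 1.24e-06).

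Neither glyoxylate cycle enzyme rose in wild type of the Acy experiment, where the glucose-repressible gene was 5.30-fold higher at 12 h (isocitrate lyase -0.34 ± 0.225, limma adjusted p = 0.275; malate synthase -0.18 ± 0.258, adjusted p = 0.632). Isocitrate lyase had 13.1 ± 1.42 TPM in the deletion at 12 h and 15.3 ± 3.10 TPM at 0 h, against 30.3 ± 4.49 TPM in wild type at 12 h and 39.6 ± 12.2 TPM at 0 h, and was lower in the deletion at 12 h (-1.15 ± 0.225, limma adjusted p = 0.000926) and at 0 h (-1.29 ± 0.225, adjusted p = 0.000578). Of 48 tested genes of the list, 18 were lower and 7 higher in the Acy deletion at 12 h, where 13.7% and 45.5% of all genes were (median -0.18, against 0.39), or 32 and 0 after scaling. At 0 h 15 were lower and 5 higher, where 15.6% and 26.6% were (median -0.17, against 0.11), or 20 and 5. In wild type 13 rose and 7 fell over 12 h, where 9.20% and 19.4% did (median 0.01, against -0.19), or 19 and 2. In the deletion 4 rose and 2 fell, where 3.66% and 1.33% did (median 0.17, against 0.09), or 2 and 2. That last count of 6 was 3 with the replicate block or with only the 2 groups compared, and ran from 2 to 10 with 1 deletion library left out (2 without replicate 2 at 12 h, 10 without replicate 3 at 12 h, and 3 without each of the other 4 in turn), and the wild type count of 20 was 13 without replicate 3 at 0 h. Alcohol dehydrogenase 1 (AOL_s00081g10) was named for its wide range of group means in this experiment, and is given without a test. It had 252 TPM in the Acy deletion at 12 h and 184 TPM at 0 h, against 1473 TPM in wild type at 12 h and 917 TPM at 0 h (deletion against wild type -2.55 and -2.29).

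The list on glucose repression and sensing has 12 tested genes besides AOL_s00004g152. In PkaC1 deletion against wild type 11 were lower and 1 higher at 12 h, where 52.0% and 18.9% of all genes were (median -0.62, against -0.39), or 5 and 2 after scaling. At 0 h 6 were lower and 3 higher, where 24% and 40.7% were (median -0.04, against 0.20), or 6 and 2. Over 12 h 9 fell and 1 rose in the deletion, where 62.2% and 19.4% did (median -1.02, against -0.72), or 4 and 3. In wild type 5 fell and 2 rose, where 41.6% and 28.1% did (median -0.30, against -0.16), or 5 and 4. With each wild type group as 1 library 7 were called at 12 h, 2 at 0 h and 3 within wild type, against 12, 9 and 7. In the Acy deletion 2 were lower and 3 higher than in wild type at 12 h, where 13.7% and 45.5% of all genes were (median 0.21, against 0.39), or 5 and 0 after scaling. At 0 h 2 were lower, where 15.6% were (median -0.07, against 0.11), or 4 after scaling. That count of 5 at 12 h was 3 with no filter, and 3 without replicate 1 or 2 of the deletion at 12 h, replicate 1 or 2 of wild type at 12 h, or replicate 3 of wild type at 0 h. Over 12 h 1 rose in the Acy deletion, where 3.66% did (median 0.24, against 0.09), or 1 rose and 1 fell after scaling, but none was called with the replicate block, with only the 2 groups compared, without any deletion library other than replicate 3 at 12 h, or without wild type replicate 1 or 3 at 0 h. In wild type limma called 0, with 1 at an unadjusted p under 0.05, where 28.6% of all genes were called (median -0.11, against -0.19), or 1 higher after scaling. The carbon catabolite repressor CreA (AOL_s00054g35) had 20.0 TPM in PkaC1 deletion and 32.2 TPM in wild type at 12 h (-0.66 ± 0.109, adjusted p = 0.00021, but -0.22 and adjusted p = 0.064 after scaling). The list also holds matches to Hexokinase-1 (AOL_s00215g425) and a glucokinase (AOL_s00004g632), so the hexokinase match AOL_s00112g89 alone does not stand for the first step of glucose use. AOL_s00112g89 had 7.20 ± 1.02 TPM in PkaC1 deletion at 12 h and 62.7 ± 0.562 TPM at 0 h, against 11.2 ± 0.191 TPM in wild type at 12 h and 108 ± 2.89 TPM at 0 h. It was lower at 12 h in the deletion (-2.96, and -2.10 after scaling) and in wild type (-3.16), with a difference in response of 0.20. These differences are given without a test, because the gene was named for its wide range of group means in these data.

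Because the N. crassa gene is controlled by the clock, 10 clock and light genes were counted. In PkaC1 deletion against wild type 4 were higher and 3 lower at 12 h, where 18.9% and 52.0% of all genes were (median 0.00, against -0.39), or 6 and 0 after scaling. At 0 h 3 were higher and 3 lower, where 40.7% and 24% were (median -0.02, against 0.20), or 1 and 5, with 3 called at 0 h when each wild type group was 1 library. Over 12 h 8 fell and 1 rose in the PkaC1 deletion, where 62.2% and 19.4% of all genes did (median -0.96, against -0.72), or 4 and 3 after scaling. In wild type 8 fell and 1 rose, where 41.6% and 28.1% did (median -1.51, against -0.16), or 8 and 2. The frequency clock gene and Opsin-1 were named for their wide range of group means in these data, and are given without a test. The frequency clock gene (AOL_s00054g633) had 56.8 TPM in the deletion at 12 h and 279 TPM at 0 h, against 29.6 TPM in wild type at 12 h and 223 TPM at 0 h. It was lower at 12 h in the deletion (-2.27, and -1.35 after scaling) and in wild type (-2.87). Opsin-1 (AOL_s00054g626) had 361 ± 42.2 TPM in the deletion at 12 h and 50.7 ± 6.83 TPM at 0 h, against 42.3 ± 4.87 TPM in wild type at 12 h and 133 ± 8.42 TPM at 0 h. It was higher at 12 h in the deletion (2.81, and 3.73 after scaling) and lower in wild type (-1.64), the same directions as the glucose-repressible gene. Against their wild type the Acy deletion libraries had 5 of these genes higher and 1 lower at 12 h, where 45.5% and 13.7% of all genes were (median 0.29, against 0.39), or 3 and 4 after scaling. At 0 h 4 were higher and 2 lower, where 26.6% and 15.6% were (median 0.17, against 0.11). In wild type 2 rose and 2 fell over 12 h, where 9.20% and 19.4% did (median 0.19, against -0.19), or 4 and 0 after scaling. That total of 4 was 2 with no filter or with only the 2 groups compared, and 1 with the replicate block. Leaving out 1 library brought it to 2 (deletion replicate 1 at 12 h, wild type replicate 3 at 12 h, wild type replicate 1 or 2 at 0 h) or to 1 (deletion replicate 2 at 12 h, wild type replicate 2 at 12 h, wild type replicate 3 at 0 h). In the Acy deletion limma called 0, with 2 at an unadjusted p under 0.05 (median 0.21).

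**Figure D5:**
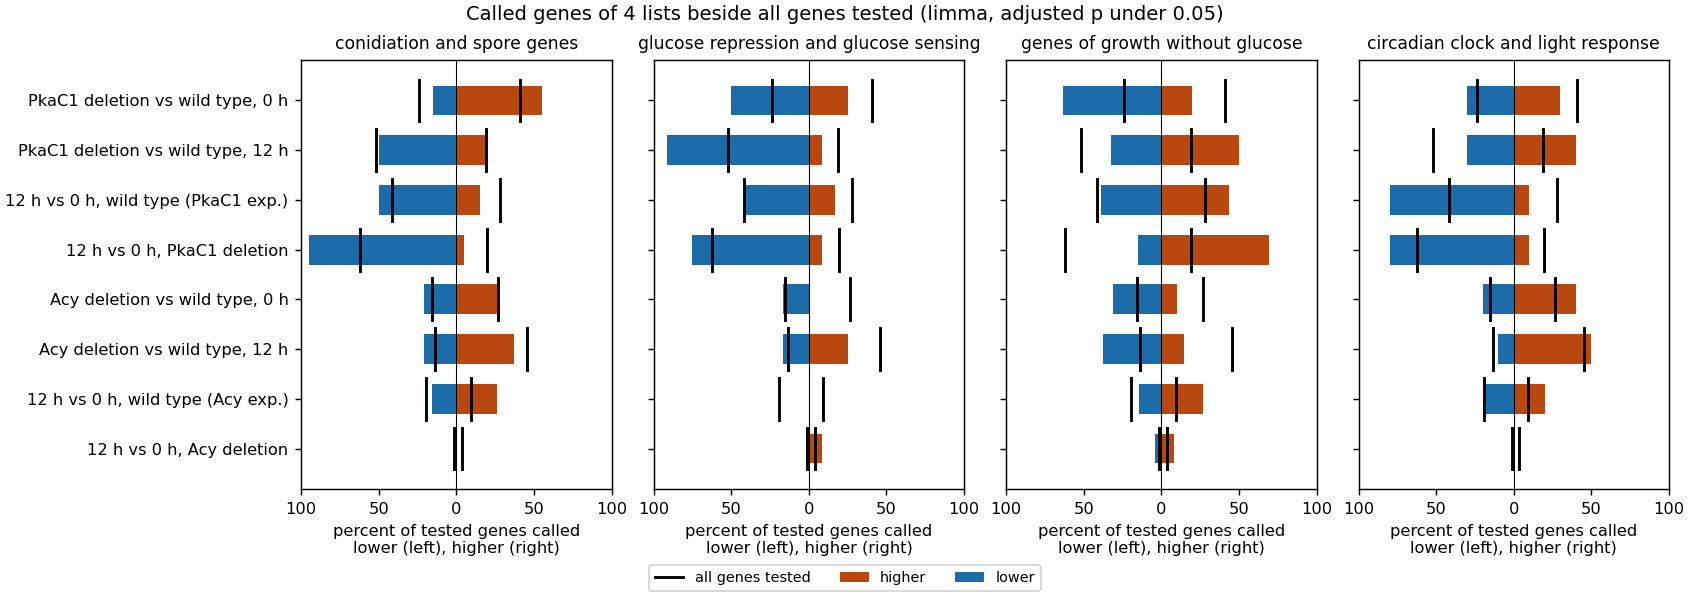
Percent of the tested genes of 4 lists called higher (right) or lower (left) at a limma adjusted p under 0.05 in each comparison, beside the percent of all genes tested (black lines), without the 3 genes of interest. In the PkaC1 deletion between 0 h and 12 h the conidiation list has 19 of 20 genes lower, where 62.2% of all genes are, and the list of growth without glucose has 32 of 46 higher, where 19.4% are.

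Genes most like each of the 3 were ranked by the Pearson correlation of 8 group means of log2(TPM + 1), among 4893 other genes tested in both experiments whose group means span at least 2 log2 units. The 8 points come from 2 tables normalized separately, so a gene that merely differs between the experiments also scores high. For the rodlet gene 228 genes reached r of 0.9 or more. The first was AOL_s00210g255, with a von Hippel-Lindau domain (r = 0.989), with 4621 ± 747 TPM in Acy deletion at 12 h and 4189 ± 1065 TPM at 0 h, against 15467 ± 3952 TPM in wild type at 12 h and 1148 ± 47.7 TPM at 0 h. It had 16.1 ± 1.32 TPM in PkaC1 deletion at 12 h and 12.6 ± 1.42 TPM at 0 h, against 2.96 ± 1.36 TPM in wild type at 12 h and 4.96 ± 3.67 TPM at 0 h. AOL_s00117g30, AOL_s00004g53, AOL_s00076g194 and AOL_s00054g151 followed at r of 0.984 to 0.987.

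For conidiation-specific protein 13 only AOL_s00004g133 reached 0.9 (r = 0.921), a match to isopenicillin N epimerase component 2, with 31.5 ± 0.892 TPM in PkaC1 deletion at 12 h and 7.80 ± 0.917 TPM at 0 h, against 7.25 ± 0.728 TPM in wild type at 12 h and 10.5 ± 0.512 TPM at 0 h. Next came the glucoamylase AOL_s00169g182, a starch-degrading enzyme (r = 0.883), with 14.3 ± 1.35 TPM in PkaC1 deletion at 12 h and at most 1.25 TPM as the mean of any other group. AOL_s00054g668, the long-chain-alcohol oxidase FAO1 match AOL_s00097g516 and AOL_s00081g291 followed at r of 0.862 to 0.882.

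For the glucose-repressible gene 59 genes reached r of 0.9. The alcohol dehydrogenase patD match AOL_s00188g321 was first (r = 0.983), with 87.8 ± 9.75 TPM in PkaC1 deletion at 12 h and 24.7 ± 10.8 TPM at 0 h, against 11.2 ± 0.729 TPM in wild type at 12 h and 155 ± 2.92 TPM at 0 h. Among the Acy strains it had 585 ± 68.0 TPM in the deletion at 12 h and 382 ± 44.3 TPM at 0 h, against 982 ± 224 TPM in wild type at 12 h and 197 ± 31.3 TPM at 0 h. Unlike AOL_s00004g152 its mean was higher at 12 h than at 0 h in the Acy deletion. AOL_s00006g257, AOL_s00210g369, the oxidoreductase YhxC match AOL_s00215g834 and the RVS167 match AOL_s00075g199 followed at r of 0.971 to 0.980. Among the 3 genes themselves r was 0.777 between the rodlet and the glucose-repressible gene, 0.08 between conidiation-specific protein 13 and the glucose-repressible gene, and -0.07 between conidiation-specific protein 13 and the rodlet gene.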

How the data were processed

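The authors deposited TPM per library for each gene. The submitters' processing notes name HISAT2 and StringTie, with no version; which genome build was used is not given in the sources used here. Beside TPM, the authors' deposited tables also hold ratio (fold), log2 fold change and p-value columns per comparison, from which only log2 values were copied; 8 columns of group means were not used. Gene order came from the RefSeq annotation, whose locus tags matched all 11479 names. A gene was tested where 3 or more of the 12 libraries of an experiment had at least 1 TPM (8977 in the PkaC1 and 9617 in the Acy experiment), and all 3 genes of interest passed in both; in the PkaC1 experiment the rodlet gene and conidiation-specific protein 13 passed through deletion libraries. Values were log2(TPM + 1), which understates changes of low genes; limma 3.58.1 in R 4.3.3 fitted the 4 group means of each experiment (trend, empirical Bayes), with Benjamini-Hochberg adjustment over all genes tested. Named genes beyond the 3 are their annotated relatives, the 5 most correlated genes, 3 neighbours per side, up to 3 genes per list and experiment with the widest range of group means at 10 TPM or more, conidiation regulators and, added for their role, genes carrying the leading words of the lists. The 3 genes and all lists were chosen with earlier results of these data known. Each p-value measures only the spread between libraries, which may be technical. Alternatives were a pseudocount of 0.1, no filter, a minimum of 5 TPM, scaling libraries to equal medians, a replicate block, robust variances, only the 2 groups compared, wild type groups of the PkaC1 experiment as 1 library each, lists with COG text and each library left out. Only in the Acy deletion did deviations of all same-numbered libraries correlate above 0.1 (12 h against 0 h, r = 0.209, 0.137 and 0.435). Even there only replicate 3 at 12 h correlated best with its own number, so a pairing is not established. On simulated data 86% of genes changed by 1 log2 unit and 41% of those changed by 0.5 were recovered in PkaC1 deletion against wild type at 0 h (8977 genes), and 70% and 16% in Acy deletion against wild type at 0 h (9617 genes). The simulation changed few genes, and otherwise gave each gene the same mean and the same normal spread in every group. In the real comparisons 64.7% and 42.1% of genes were called and spread differed between groups, so these shares do not carry over to them.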

Additional observations from a re-analysis of the deposited data

Results flagged for a closer look

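Groups of 3 libraries are too small for a check on single outlying libraries. For the 3 genes, 13 differences between responses had every library of one group on one side and every library of the other on the opposite side, and none of these was tested. Deletion and wild type responses were opposite in this way in 16.7% of all genes tested for the PkaC1 strains and 4.56% for the Acy strains. No such share was computed for pairings across the experiments, so nothing is read from the count. For the rodlet gene the response to 12 h differed by -3.57 between Acy deletion (-0.21) and wild type (3.36), which is the same contrast as its deletion effect at 12 h less that at 0 h. Its deletion effect at 12 h differed by 5.74 between the PkaC1 experiment (2.99) and the Acy experiment (-2.74). Conidiation-specific protein 13 differed by -1.72 between Acy deletion (-0.95) and wild type (0.77), at levels below 3 TPM, and by 5.77 between PkaC1 deletion (4.82) and Acy deletion (-0.95).

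The glucose-repressible gene was flagged in every pairing. Its response differed by 7.93 between PkaC1 deletion (2.82) and wild type (-5.11), and by -3.28 between Acy deletion (-0.89) and wild type (2.39). Both values also stand for the deletion effect at 12 h less that at 0 h. The wild types of the PkaC1 and Acy experiments differed by -7.50 (-5.11 against 2.39), and the PkaC1 and Acy deletions by 3.71 (2.82 against -0.89). Its deletion effect differed between the PkaC1 and Acy experiments by -5.98 at 0 h (-4.10 against 1.88) and by 5.23 at 12 h (3.83 against -1.40). The tables of both experiments were normalized separately.

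Among 77 other named genes, 20 responses were opposite in deletion and wild type in every library. The share of all genes tested that were opposite in this way was 16.7% for the PkaC1 strains and 4.56% for the Acy strains. A difference between responses, in the same or opposite directions, was called by limma in 71.9% and 19.3%. In the PkaC1 experiment, as deletion minus wild type, it was 2.36 for AOL_s00004g133, 8.43 for AOL_s00006g257, 3.95 for AOL_s00081g291, 5.54 for AOL_s00188g321, 2.29 for AOL_s00210g369 and 5.96 for AOL_s00215g834, genes chosen for their likeness to the 3 and given without a test. It was 4.44 for Opsin-1 AOL_s00054g626, named for its wide range there and also given without a test. The genes that follow were flagged by this same difference, so it is given here without a p-value. It was -1.91 for the FluG match AOL_s00043g361, -1.68 for the phosphatase AOL_s00078g215, 2.31 for alcohol dehydrogenase 1 AOL_s00081g10 and 3.47 for AOL_s00081g181, 3 genes from conidiation-specific protein 13. For AOL_s00078g215 the change in wild type alone was 0.14 (limma adjusted p = 0.491). The difference between responses was 3.05 for isocitrate lyase AOL_s00075g130, 2.57 for malate synthase AOL_s00112g112, 1.35 for acetyl-coenzyme A synthetase AOL_s00081g301, -1.55 for AOL_s00083g206 and -3.28 for the veA match AOL_s00169g18. In the Acy experiment it was -1.01 for AOL_s00004g151, 1.77 for AOL_s00006g572, -0.92 for AOL_s00081g177 and 2.0 for AOL_s00081g181.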

How the results depend on the processing

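Leaving out each library in turn moved none of the 144 values of the 3 genes beyond their spread. Spread here is the SD of the difference between 1 library of each group. With 3 libraries per group a mean cannot shift that far, so this outcome was fixed in advance. Signs could still change, as in wild type of the PkaC1 experiment between 0 h and 12 h. There the rodlet gene, at -0.16, ran from -0.30 to 0.13, and conidiation-specific protein 13, at -0.10, from -0.38 to 0.26. A pseudocount of 0.1 in place of 1 gave 5.59 (12 h) and 5.97 (0 h) for the rodlet gene in PkaC1 deletion against wild type. For conidiation-specific protein 13 it gave 7.48 and 1.17 in the same comparisons, 6.08 for 12 h against 0 h in PkaC1 deletion, 2.99 for Acy deletion against wild type at 0 h, and 1.84 and -1.50 for 12 h against 0 h in wild type and deletion of that experiment. Scaling to the same median gave -3.26 for the rodlet gene in Acy deletion against wild type at 12 h, 5.46 for conidiation-specific protein 13 in PkaC1 deletion (12 h against 0 h), and for the glucose-repressible gene 4.29 and 3.74 (PkaC1 deletion at 12 h, against wild type and against 0 h) and -1.92 (Acy deletion against wild type at 12 h). The other 16 values with the pseudocount and 19 with scaling stayed within the spread; scaling moved the median of all genes tested, -0.72 in PkaC1 deletion (12 h against 0 h), to 0.10.

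Counts of genes called moved by over 1.5 times when the tight wild type libraries of the PkaC1 experiment were averaged into 1 per group, the lone libraries being assumed to vary like the deletion libraries: 3001, 3918 and 3343 genes, against 5807 (deletion against wild type, 0 h), 6368 (12 h) and 6258 (wild type, 12 h against 0 h). With only the 2 groups compared 211 genes were called in Acy deletion (12 h against 0 h), against 480, and leaving out a library gave 152 to 868. In wild type of that experiment leaving out a library gave 1690 (without replicate 2 at 12 h) to 3129, against 2751. With the replicate block 349 genes were called in Acy deletion (12 h against 0 h). The pairing there rests on the data alone, and only replicate 3 at 12 h correlated best with its own number. List counts there were 0 (conidiation, glucose repression, clock) and 3 (growth without glucose), against 0, 1, 0 and 6. Elsewhere the block moved no count over all genes by more than 1.5 times, and of the list counts only the clock and light list in wild type of the Acy experiment (12 h against 0 h, 1 against 4); in the other 7 comparisons same-numbered libraries correlated at -0.38 to 0.25, so they share only a number. Lists drawn with COG text as well gave larger counts for glucose repression: 12 against 7 in wild type of the PkaC1 experiment (12 h against 0 h), and in the Acy experiment 4 against 2 (deletion against wild type, 0 h), 9 against 5 (12 h) and 2 against 1 (deletion, 12 h against 0 h). The depth behind TPM is unknown, which limits what can be said of values near 0.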
